A study of Gallus gallus and Columba livia with 18 samples.

Results

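The comparison set the pooled messenger RNA profile of pigeon (Columba livia) retina at E5, days 5 to 5.5 of incubation, against that at E3, days 3 to 3.5. Of 16652 gene rows in the pigeon table, 14681 had a model length of at least 300 bases, and 11194 of these reached an FPKM of 1 at E3 or at E5 and were compared. FPKM counts fragments per kilobase of a gene model, corrected for the size of the library. Both chicken and pigeon tables together list 41360 rows.

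Embryos of both species grew in fertilized eggs in a humidified incubator at 37 °C, with no treatment and no genetic change in the labels. For each species there were 3 libraries per stage, each from 1 to 6 pooled whole retinas, and the last stage, E8, covers days 8 to 8.5. The pigeon table gives 1 pooled FPKM per stage for its 3 libraries, so a value carries no replicate error, and no SD, n or p-value stands beside any difference. The labels name no breed, sex or number of embryos.

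At these ages the neural retina is a sheet of dividing progenitor cells from which the first neurons leave the cell cycle. Ganglion cells, whose axons form the optic nerve, are among the first types to appear in vertebrates, together with cones, horizontal cells and some amacrine cells. Rods, bipolar cells and Müller glia follow. Proneural transcription factors drive a progenitor towards a neuronal fate, and Notch signalling between neighbouring cells holds others back.

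Change is the difference between log2(FPKM + 1) at E5 and at E3. The added 1 understates the change of rows with low values. A row was counted as higher or lower when its change was at least 1 in size. By this rule 179 of 11194 rows were higher at E5 (1.6%) and 174 were lower (1.55%), so 353 rows (3.15%) were counted in all. The median change over all rows was −0.0015, and 70.9% of rows lay within 0.25 of no change. At a change of at least 2, 14 rows were higher and 16 lower (0.268% together), while 1341 rows (12.0%) differed by at least 0.5. From E5 to E8 the same filters left 11334 rows, of which 1871 (16.5%) differed by at least 1. The comparison from E3 to E5 shares the E5 column with that one.

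The rule is a threshold on a continuous spread. The smallest change counted as higher was 1.0044 and the largest left out was 0.9993, with 33 rows between 1 and 1.1 and 44 between 0.9 and 1. On the other side the nearest values were −1.0023 and −0.9953, with 45 rows between −1.1 and −1 and 44 between −1 and −0.9.

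**Figure D1:**
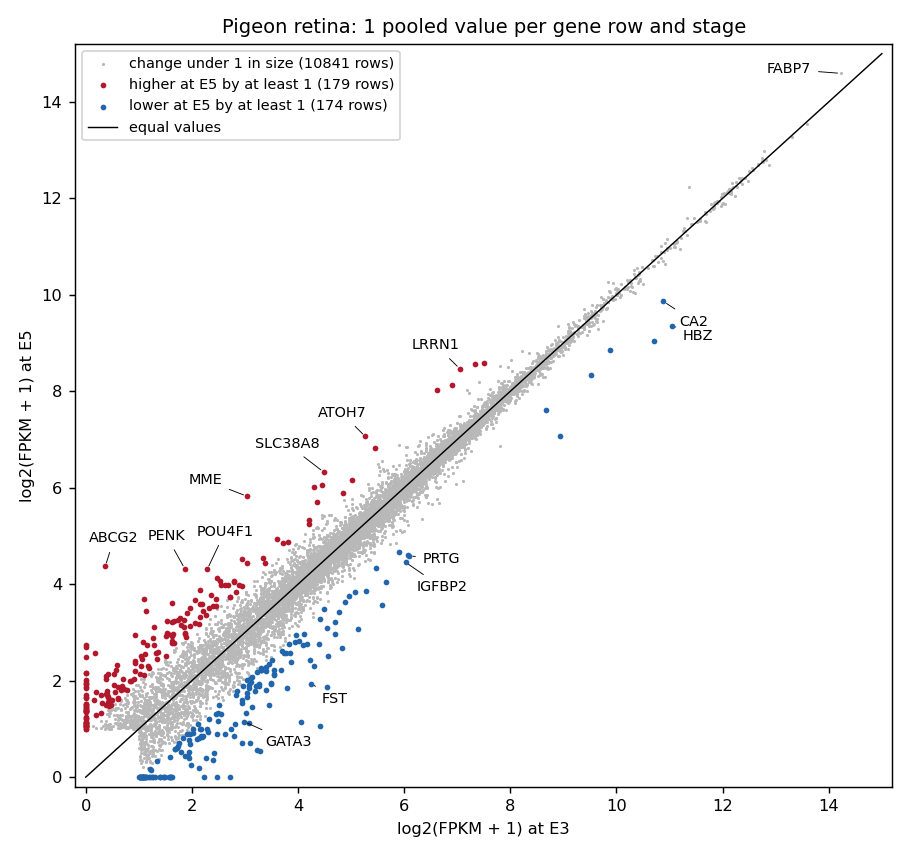
Log2(FPKM + 1) at E3 (horizontal axis) and at E5 (vertical axis) for the 11194 compared rows, 1 point per row and 1 pooled value per stage. The 179 rows higher at E5 and the 174 lower ones are coloured, and most of them lie at the low end of both axes, with the globin row HBZ and the carbonic anhydrase row CA2 as exceptions near the top.

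Counted rows were mostly of low level and on short models. Of 706 rows whose higher value was between 1 and 2 FPKM, 10.6% were counted, and of 1019 rows between 2 and 5 FPKM, 9.62%. The share was 4.99% of 2545 rows between 5 and 20 FPKM, 0.805% of 4844 rows between 20 and 100 FPKM, and 0.673% of 2080 rows at 100 FPKM or more. The counted rows had a median length of 567 bases, against 1206 bases for all compared rows. Rows listed at 0 at one stage numbered 82, with 44 at E3 and 38 at E5, and no fold is given for them. All 82 are counted by construction, since a row at 0 was compared only with at least 1 FPKM at the other stage.

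The tables list no read totals. As a rough gauge of the reads behind a value, the product of FPKM and model length was expressed in smallest steps. A step is the lowest nonzero product in the same column among the 200 expressed models nearest in length. It need not be 1 read, and E5 values such as 1.76 for APOVLDLII and 2.79 for CD300LG are not whole steps. An FPKM of 4 to 6 on a model of 900 to 1100 bases stood for a median of 32.4 steps at E3 and 49.8 at E5. At their higher stage, 53 of the 179 higher rows and 60 of the 174 lower rows held fewer than 10 steps.

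**Figure D2:**
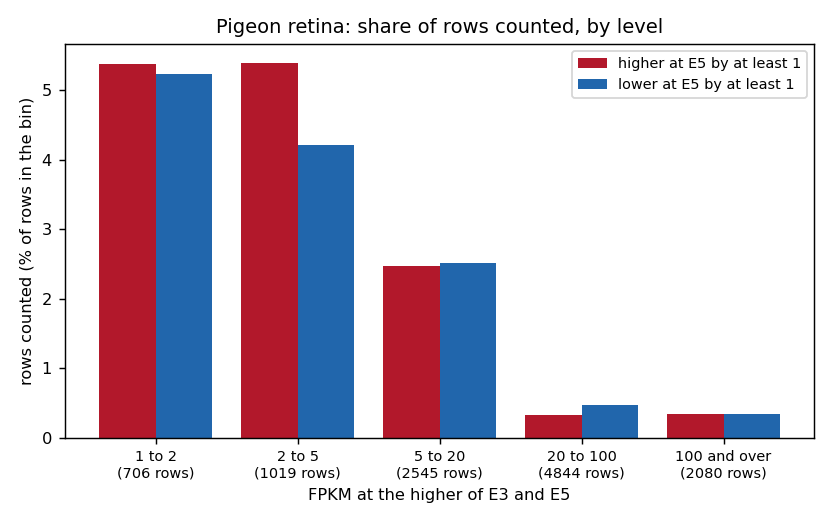
Share of compared rows counted as higher or lower at E5 (vertical axis, percent of rows in the bin) by the higher of the FPKM values at E3 and E5 (horizontal axis). In both directions the bars are tallest under 5 FPKM, and in the bin of 100 FPKM and over 7 rows were higher and 7 lower.

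Genes that push progenitors towards a neuronal fate held some of the larger positive changes. Of 25 symbols in the list of proneural and other neurogenic genes, 10 were compared, on 11 rows. At least 1 unit higher were 4 of these rows and none was lower, against 1.6% and 1.55% of all rows, and the list's median change was 0.39, or 0.89 over the 9 rows of symbols listed once. Here and in the lists below, the share over all rows hides a range by level, from 10.6% between 1 and 2 FPKM to 0.673% at 100 FPKM or more. ATOH7, the bHLH factor needed for ganglion cells in mouse and zebrafish, stood at 37.5 FPKM at E3, 133 at E5 and then 1827 at E8, a change of 1.8 from E3 to E5. Its pigeon model lies on scaffold645 from 414244 to 414696, in the authors' coordinates, whose genome build was not given in the sources used here. MYT1, a zinc finger factor of new neurons, stood at 1.90, 6.98 and 60.1 FPKM over E3, E5 and E8. HES6, an HES-family protein that promotes neurogenesis in mouse and frog, stood at 17.6, 37.1 and 422. TFAP2D, an AP-2 transcription factor, stood at 0.312, 2.28 and 146, with 3.03 smallest steps at E3. In each of these rows E8 was the highest stage and E3 the lowest.

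SRRM4, a splicing factor of neurons, missed the threshold with 10.5 and 20.2 FPKM at E3 and E5 (0.89). CDKN1B, an inhibitor of the cell cycle, stood at 83.2 and 94.5. EYA2 was the lowest member of the proneural list, at 10.6 and 5.65 (−0.80). NDF1_CHICK is an entry name that the tables do not pair with a symbol, and that row stood at 4.56, 16.4 and 240 FPKM over E3, E5 and E8. It lay 33757 bases from CERKL, a row at 1.13, 3.34 and 46.6.

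In the Notch pathway none of 22 compared rows reached 1 in either direction. With 3.15% of all rows past 1, a count of 0 or 1 in a list of this size is near the share over all rows, here and in the lists below, and is no result about the list. The median change was 0.04, with 15 rows positive and 7 negative. The ligand DLL1 stood on 2 rows, at 43.6 and 59.8 FPKM (0.45) on one and 8.86 and 13.7 (0.57) on the other. JAG1, a second ligand, stood at 17.9 and 14.3, and HES4, an effector, at 370 and 348 on the row with the higher level. HEY1, another effector, was at 55.6 and 77.1 (0.46). MFNG, an enzyme that adds sugars to the Notch receptor, came closest to the threshold on its more abundant row, at 44.4 and 89.6 (0.997), while its other row stood at 2.08 and 2.16.

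The list of transcription factors of ganglion cells had 4 of 15 compared rows past 1 upwards and none downwards, against 1.6% and 1.55% of all rows. The median change was 0.58, and it was 0.27 over the 12 rows of symbols listed once. The 4 higher rows held 2.42 to 18.8 FPKM at E5. Of all rows, 9.62% from 2 to 5 FPKM and 4.99% from 5 to 20 FPKM were counted in either direction. POU4F1, a POU factor of ganglion cells and sensory neurons, stood at 3.89 FPKM at E3, 18.8 at E5 and 89.4 at E8 (2.02). Its model lies on scaffold14 from 178819 to 180260. ISL1, a LIM factor of ganglion, amacrine, horizontal and bipolar cells, stood at 0.143, 2.42 and 32.7, with 1.00 smallest step at E3. One of the 2 compared rows named POU4F3 stood at 5.41, 14.9 and 47.1 (1.31) and the other at 10.2, 15.8 and 45.3 (0.58). IRX4, an Iroquois factor, stood at 3.16, 8.14 and 28.5. EBF1 and EBF2, factors of differentiating neurons, missed the threshold with changes of 0.41 and 0.80. SOX11 stood at 95.6 and 68.0 (−0.49) and IRX2 at 2.80 and 1.05 (−0.89). In these bulk samples more cells of a type and more RNA per cell cannot be told apart.

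Genes of the axon and the neuronal cytoskeleton were split. Of 21 compared rows, 4 passed 1 upwards and none downwards, against 1.6% and 1.55% of all rows, but the median change was 0.07. The neurofilament light chain NEFL stood on 2 neighbouring rows, at 17.4, 39.0 and 99.4 FPKM over E3, E5 and E8 on one and 11.1, 29.8 and 96.1 on the other. SCG2, a protein of dense-core vesicles, stood at 0.216, 2.26 and 15.9, with 3.04 smallest steps at E3. Abundant members moved less, and the growth cone protein GAP43 stood at 48.3 and 46.5, the microtubule regulator STMN1 at 2047 and 2008, and STMN2 at 219 and 188 on its most abundant row. GPM6A, a membrane glycoprotein of neurons outside the lists, stood at 19.5, 50.8 and 454 and was named after its values were seen.

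Among photoreceptor genes 3 of 16 compared rows passed 1 upwards and none downwards, against 1.6% and 1.55% of all rows. The median change was 0.06, or 0.55 over the 9 rows of symbols listed once. RXRG, a retinoid receptor of early cones, stood at 3.45, 13.8 and 226 FPKM over E3, E5 and E8 (1.74), with the model on scaffold7 from 17682222 to 17693736. SAMD7, a repressor of photoreceptor nuclei known from mouse, stood at 0.299, 3.08 and 96.6. RORB, a nuclear receptor of retinal development, stood at 11.3 and 21.8 (0.90), and OTX2, a factor of photoreceptor, bipolar and pigment epithelium cells, at 97.7 and 86.5 on one row and 53.8 and 48.2 on the other. Another 13 rows of this list were under 1 FPKM at both stages. Rows named OPN1LW, PRPH2 and GUCA1B were among them, with OPN1LW at 0.192 and 0.827 on its higher row.

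The list of amacrine and horizontal cells went both ways. Of 15 compared rows 3 were higher and 2 lower, against 1.6% and 1.55% of all rows. The median was 0.46, which was 0.15 with a pseudocount of 5. PENK, proenkephalin, stood at 2.65, 18.9 and 1.41 FPKM over E3, E5 and E8 (2.45). CALB1, the calcium-binding protein calbindin, stood at 1.44, 7.71 and 98.3 (1.84). ISL1, described above, is the other higher member. The AP-2 factor TFAP2C stood at 5.13, 0.857 and 3.00 (−1.72), and TFAP2B stood on 3 rows with changes of −1.09, −0.81 and −0.73. FOXN4, a factor of progenitors that form amacrine and horizontal cells in mouse, stood at 54.3 and 86.8 (0.67). The bipolar list held only 4 compared rows, of which ISL1 was the single one past 1, and VSX1 stood at 280 and 329 on its more abundant row.

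Of 14 glial rows 3 were higher and 1 lower, against 1.6% and 1.55% of all rows, and the median was 0.29. The 3 higher rows held 1.81 to 6.87 FPKM at E5, levels at which 4.99% to 10.6% of all rows were counted in either direction. The nuclear factors NFIA and NFIB, which promote gliogenesis in mouse, stood at 0.302 and 1.81 FPKM and at 1.5 and 4.95. NFIA held 2.03 smallest steps at E3. MBP, myelin basic protein, stood at 1.94, 6.87 and 44.2 over E3, E5 and E8. CA2, a carbonic anhydrase found in Müller glia of older retina, stood at 1891, 930 and 1258 (−1.02), with 9153 smallest steps at E3 and 6653 at E5. FABP7, a fatty acid binding protein of neural progenitors and glia, was the most abundant compared row at E3 and E5. It stood at 19258, 24669 and 41455 over E3, E5 and E8 (0.36). GLUL, glutamine synthetase, stood at 51.6 and 66.6.

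**Figure D3:**
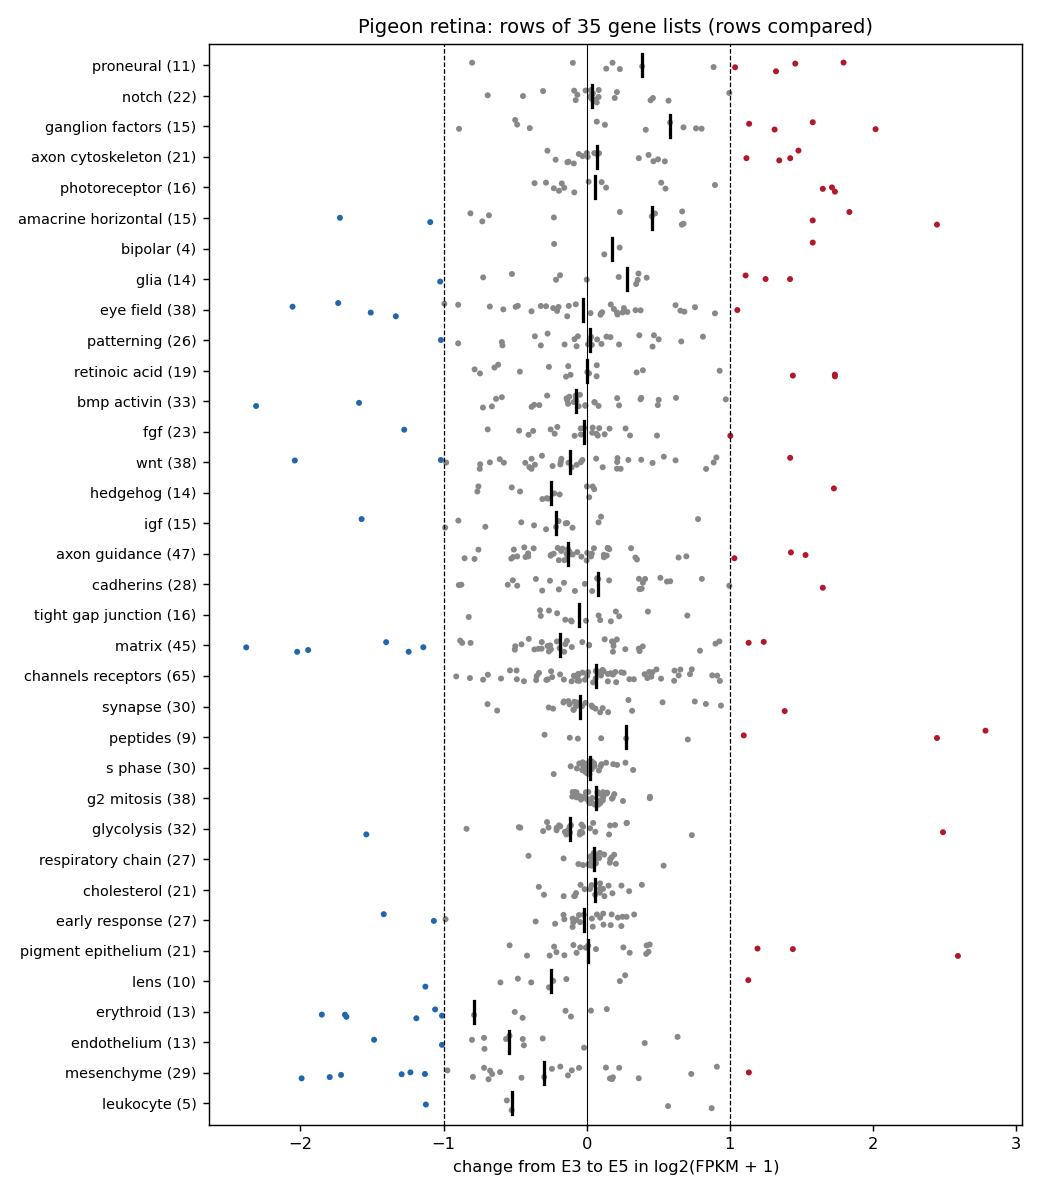
Change from E3 to E5 in log2(FPKM + 1) (horizontal axis) for each compared row of 35 gene lists (vertical axis, number of rows in brackets). Points past the dashed lines at 1 and −1 are coloured and black bars mark list medians, from −0.79 for erythroid genes to 0.58 for ganglion cell factors.

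Among 38 compared rows of eye field and progenitor genes 1 was higher and 4 were lower, against 1.6% and 1.55% of all rows. On each side of 0 lay 19 rows, with a median of −0.02. The core factors were abundant at both stages. Of all rows at 100 FPKM or more 0.673% were counted, so small changes at such levels are no trait of these genes. PAX6_CHICK stood at 509 and 433 FPKM, SIX6 at 493 and 449, SIX3 at 254 and 259, SOX2 at 112 and 146, and one of 2 rows of RAX2 at 543 and 610. CCND1, the cyclin of retinal progenitors, stood at 226 and 286. The lower rows included LIN28B, an RNA-binding protein of stem and progenitor cells, at 34.1, 7.46 and 0 on one row (−2.06) and 125, 66.9 and 8.95 on the other (−0.90). PRTG, protogenin, an immunoglobulin-family membrane protein, stood at 67.4, 23.0 and 0.403 (−1.51) on a model of 3333 bases. EYA1 stood at 6.68 and 2.05, and SIX2 at 2.98 and 0.193 on one row. ZIC1, a zinc finger factor, was the higher row, at 13.1 and 28.3 (1.05).

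Patterning factors and Eph and ephrin genes had 1 of 26 rows lower and none higher, with a median of 0.03. PAX2, a factor of the optic stalk and ventral eye, stood at 21.6, 10.1 and 5.84 FPKM (−1.02). VAX1_CHICK stood at 62.7 and 33.2 (−0.90). TBX2, a dorsal factor, stood at 63.8 and 71.7 on the higher of its 2 rows, and EFNA5, an ephrin, at 53.0 and 73.9. EPHA2 stood on 9 compared rows, which may be paralogs under one name, with changes from −0.59 to 0.66.

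In the retinoic acid list the median was 0.0052. Upwards 3 of 19 rows passed 1 and downwards none, against 1.6% and 1.55% of all rows. Besides RXRG these were TTR-1, a name of the carrier protein transthyretin, at 1.45 and 5.67 FPKM and 1 of 4 rows named ALDH1A3, a synthesis enzyme, at 0.512 and 4.03. The other ALDH1A3 rows were far more abundant and stood at 656 and 600, 306 and 255, and 178 and 186. CYP26A1, which breaks retinoic acid down, stood at 41.9 and 23.9 (−0.78) on one row and at 9.06 and 18.2 (0.93) on the other. STRA6, a retinol uptake receptor, stood at 75.1 and 47.7.

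Among signalling genes, the activin antagonist FST was one of the lowest rows. In the BMP, TGF-beta and activin list 2 of 33 rows were lower and none was higher, against 1.55% and 1.6% of all rows. The list's median was −0.07. FST, follistatin, which binds activin, stood at 18.0, 2.84 and 0.345 FPKM over E3, E5 and E8 (−2.31) on scaffold22 from 2137336 to 2143070. CHRDL1, a BMP antagonist, ran the other way at 46.6 and 92.4 (0.97), short of the threshold. The ligand BMP7 stood at 149 and 141 on one row and at 0.178 and 0.12, under the filter, on another. The target ID2 stood at 755 and 784 on one row. Another ID2 row, of 267 bases and so not compared, stood at 1358 and 1343. WFIKKN2, outside the lists, encodes a secreted protein that binds TGF-beta family ligands, and stood at 2.10, 11.3 and 1.5 (1.99) on one row and 40.8, 30.6 and 0.923 on the other.

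The Wnt list had 1 of 38 rows higher and 2 lower, against 1.6% and 1.55% of all rows, with a median of −0.12. The ligand WNT7B stood at 4.25 and 0.278 FPKM (−2.04), with 2.90 smallest steps at E5, and one of 3 rows of the receptor FZD10 at 3.35 and 1.15. The most abundant FZD10 row stood at 119 and 105. WIF1, an inhibitor that binds Wnt ligands, stood at 4.13, 12.7 and 5.36 (1.42). The antagonist SFRP1 stood at 926 and 1073 on its abundant row, and NOTUM, an enzyme that inactivates Wnt ligands, at 65.4 and 38.6 (−0.74).

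FGF, Hedgehog and insulin-like growth factor genes gave single rows past 1. Of 23 FGF rows, FGF16 was higher with 1.84 and 4.70 FPKM (1.0044, the smallest change counted as higher). Lower was 1 of 3 rows of the feedback inhibitor SPRY2, with 13.4 and 4.97. FGF8_CHICK stood at 120 and 119 on one row and was listed at 0 at both stages on another. Of 14 Hedgehog rows, the ligand IHH was higher with 0.330, 3.41 and 0.198 over E3, E5 and E8 and 2.01 smallest steps at E3, while the median was −0.25. The receptor PTCH1 and GLI1_CHICK, from the names of Hedgehog target genes, stood at 7.72 and 4.14 and at 27.4 and 15.8. IGFBP2, a binding protein for insulin-like growth factors, was the one lower row of 15 in that list, at 64.2, 20.9 and 7.61 (−1.57), and the list's median was −0.21 with 12 rows negative.

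Of 47 axon guidance rows 3 were higher and none was lower, against 1.6% and 1.55% of all rows, and the median was −0.13. CHL1, an adhesion molecule of growing axons, stood at 4.77, 15.7 and 24.6 FPKM (1.53), and one row of ROBO2, a Slit receptor, at 1.84, 6.65 and 34.4 on a model of 333 bases. NTNG1, a netrin anchored to the membrane, stood at 0.36 and 1.78. SEMA3A, a repellent of growing axons, stood at 66.5 and 36.4 (−0.85) and SEMA3C at 153 and 107 on its abundant row. Among 28 cadherin rows a row named PCDH9-1, listed at 0 at E3 and 2.14 at E5, was the only one past 1, with 3.60 smallest steps at E5. CADH1_CHICK, an entry name that was not matched to the list, stood at 6.68, 1.92 and 1.06 over E3, E5 and E8 (−1.4) with 111 smallest steps at E3. None of 16 rows of tight and gap junction genes passed 1, and the gap junction protein GJA1 stood at 1306 and 1046. CRB1, a polarity protein of retinal cells and outside these lists, stood at 2.67, 6.8 and 42.7.

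Matrix genes had 6 of 45 rows lower and 2 higher, against 1.55% and 1.6% of all rows, with a median of −0.19. SPON2, a secreted matrix protein, stood at 7.49, 0.633 and 0.189 FPKM over E3, E5 and E8 (−2.38). NID1, the basement membrane protein nidogen, stood at 47.2, 10.9 and 0.60 (−2.02) on one row and at 168, 292 and 190 (0.79) on the other, so the name alone gives no direction. ISM1, isthmin, stood at 12.9, 2.61 and 0.547, and COL14A1, a fibril-associated collagen, at 28.4, 11.4 and 0.158. The link proteins HAPLN3 and HAPLN1 gave further lower rows, and a second HAPLN1 row was higher, at 0.339 and 2.16. CO9A1_CHICK, outside the list, stood at 42.7, 112 and 13.9 (1.37).

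In the list of ion channels and neurotransmitter receptors none of 65 rows reached 1, and the median was 0.06, with GRM8 at −0.91 and DRD1 at 0.93 on the rows farthest out. Rows outside that list were picked after their values were seen. The potassium channel KCNJ6 stood at 0.112 and 2.02 FPKM (1.44) on one row, with 1.00 smallest step at E3. Of 50 rows with potassium channel names 1 was higher and 0 were lower, near the 1.6% and 1.55% of all rows. The calcium channel subunit CACNA2D4 stood at 11.7 and 3.69 (−1.44) and the cation channel TRPM2 at 7.77 and 3.24 (−1.05). The histamine receptor HRH1 stood at 3.80 and 0.318 (−1.86). SNAP25, a vesicle fusion protein, was the one synaptic row of 30, at 3.59, 11 and 65.2 FPKM (1.38). Of 9 peptide and peptidase rows 3 were higher, against 1.6% of all rows. MME, neprilysin, a membrane peptidase that cleaves enkephalins and other peptides, stood at 7.21 at E3, 55.7 at E5 and 2.04 at E8 (2.79), on scaffold258 from 476466 to 505457. PENK, described above, stood highest at E5 as well. NTS, neurotensin, stood at 6.44, 14.9 and 14.1.

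Genes of cell division changed within narrow ranges. None of 30 S phase rows and none of 38 rows of G2 and mitosis passed 1, and their changes ran from −0.23 to 0.32 and from −0.10 to 0.44, where 5% and 95% of all rows lay under −0.56 and 0.57. The 30 and 38 rows summed to 5823 and 6707 FPKM at E3. Over all rows the SD of change was 0.612 from 2 to 5 FPKM, 0.260 from 20 to 100 and 0.198 at 100 or more. The ranges were not set against rows of like level, so their narrowness is no result about cell division. PCNA_CHICK stood at 1088 and 1196 FPKM and TOP2A, a topoisomerase of dividing cells, at 582 and 563. None of 27 respiratory chain rows and none of 21 cholesterol rows passed 1. In the glycolysis list 22 of 32 rows were negative and the median was −0.11, with GAPDH at 7511 and 6612. The one lower row there was the least abundant of 3 rows named LDHA, at 10.2 and 2.87, while the other rows stood at 1441 and 1198 and at 789 and 690. The one higher row, PFKM-3, was listed at 0 at E3. Cytosolic ribosomal proteins, a family looked at after the data were seen, had 44 rows with none past 1.

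Immediate early and heat shock genes had 2 of 27 rows lower, against 1.55% of all rows. The lower rows were FOS at 10.7 and 3.36 FPKM and ATF3 at 8.83 and 3.69. EGR1 just missed at 5.80 and 2.44 (−0.99). These are genes that respond within minutes to stimulation or handling. JUN stood at 112 and 100, and the heat shock genes HSPA8 and HSP90AA1 at 2583 and 2413 and at 3066 and 3024. The part that dissection or time before lysis may have in these values was not tested.

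Globin rows were lower at E5. The median of the erythroid list was −0.79, from −1.03 to −0.27 over the alternatives. Its sum went from 6664 FPKM at E3 to 2586 at E5 and 308 at E8. Of 13 compared erythroid rows 6 were lower and none was higher, against 1.55% and 1.6% of all rows. All 6 are globin rows. HBZ stood at 2120, 657 and 0.615 (−1.69), HBA2 at 939, 465 and 53.0, HBM at 409, 196 and 17.6, and 3 rows named HBE1 at 1676, 734 and 488 at E3 against 523, 321 and 135 at E5. The remaining HBE1 row stood at 4.04 and 4.14. Globin genes are close copies, and the labels do not say how reads were divided among them. The 7 globin rows made up 0.544% of the FPKM of all compared rows at E3 and 0.195% at E5. Erythroid members that are no globins changed less, with EPB42 at −0.79, SPTB at −0.45 and TFRC at −0.11.

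Markers of vessels and of connective tissue around the eye were also mostly negative. Endothelial markers had 2 of 13 rows lower and none higher, against 1.55% and 1.6% of all rows. Negative rows numbered 11, the median was −0.54, and the list's sum went from 102 to 65.3 FPKM. CD34 stood at 13.6 and 4.20 and SOX7 at 2.55 and 0.763, while TIE1 stood at 3.16 and 3.11. Mesenchymal markers had 6 of 29 rows lower and 1 higher, against 1.55% and 1.6% of all rows. Their median was −0.30, with a sum of 608 at E3 and 473 at E5. PRRX2, a homeobox factor of mesenchyme, stood at 24.8, 6.85 and 0 on one row and 18.6, 3.93 and 0 on the other over E3, E5 and E8. ALX1, a factor of periocular and facial mesenchyme, stood at 17.7, 4.38 and 0, MSX1 at 32.5, 13.3 and 0 on one row, and DCN, the matrix proteoglycan decorin, at 43.2, 19.2 and 2.26. The collagen COL1A2 stood at 65.8 and 47.7. Of the mesenchymal rows 9 were positive. Among them were LUM, lumican, at 67.9 and 79.7, OSR2 at 4.44 and 8.03, and OGN, the 1 higher row, at 0.356 and 1.97. These globin, vessel and mesenchyme values moved in the same direction as the lower rows of the matrix list and as FIGF and GATA3 below, and their part in those results was not tested.

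Pigment epithelium markers were present at both stages and their sum was 749 FPKM at E3 and 728 at E5. Of 21 rows 3 were higher and none was lower, against 1.6% and 1.55% of all rows, and the median was 0.01. MLANA, a melanosome protein, stood at 1.15, 12.0 and 0 over E3, E5 and E8 (2.59), on a model of 306 bases with 1.08 smallest steps at E3. GPR143, a melanosome receptor, stood at 9.12, 22.2 and 0.284, and TTR-1 is also a member. TYR, the first enzyme of melanin synthesis, stood at 73.1 and 68.5, DCT at 27.1 and 37.0 on one row, and RPE65, a visual cycle enzyme, at 0.172 and 0.20. So melanin genes were present in both pools, while a row named BEST1, a channel of pigment epithelium, was listed at 0. Lens markers were low, with CRYBA4 higher and GRIFIN lower of 10 rows and a sum of 23.8 and 20.6, and crystallin CRYAA stood at 1.52 and 0.805. Leukocyte markers summed to 10.7 and 13.0 over 5 rows, of which 3 were negative, 1 was lower and none was higher. Their median change was −0.52.

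Rows were also ranked by change among named rows with at least 5 FPKM and 10 smallest steps at the higher stage, and the 30 at each end were taken. ABCG2, an efflux transporter, headed the higher end with 0.290 FPKM at E3, 19.7 at E5 and 0.085 at E8 (4.0), on scaffold28 from 31342 to 45824. It held 4.01 smallest steps at E3 and 400.4 at E5, and a second row of that name stood at 7.89, 6.04 and 5.55. SLC38A8, an amino acid transporter of the eye, stood at 21.4, 79.1 and 2.03 (1.84). SERPINE3, by its name a serine protease inhibitor, missed the ranking with 0.123, 4.96 and 0 at E3, E5 and E8. These rows stood higher at E5 than at either other stage, as did MME, PENK, WFIKKN2 and FHL2, a LIM-domain protein at 3.17, 11.8 and 1.72. Their rise from E3 to E5 follows from how they were chosen, and the E5 value enters the comparison with E8 as well. A peak at E5 is therefore no separate result. Other rows ranked as higher, such as ATOH7, RXRG and CALB1, stood highest at E8.

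Other ranked rows differed in where E8 lay. RELN_CHICK stood at 2.88, 10.3 and 39.4 FPKM over E3, E5 and E8 on a model of 9961 bases. HTRA1, a secreted serine protease, stood at 2.33, 8.55 and 34.0 on one row and at 24.2, 15.1 and 13.9 on the other. TPPP3, a tubulin-binding protein, stood at 1.11, 5.94 and 19.9 on one of 2 compared rows. CHSY1, a chondroitin synthase, stood at 1.90, 8.43 and 2.98. Among rows of 100 FPKM or more at the higher stage, LRRN1, a leucine-rich repeat membrane protein, stood at 131, 353 and 305 (1.42) with 2153 smallest steps at E3 and 8519 at E5. SAT1_CHICK stood at 97.8, 261 and 1860.

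At the lower end stood Q5ZMG2_CHICK, an entry with no symbol in the tables, at 20.4, 1.09 and 0 FPKM (−3.36). LGALS1-2, from the name a galectin, stood at 15.6, 1.22 and 0. FIGF, the lymphatic and vascular growth factor VEGF-D, stood at 49.6, 15.4 and 0.662 (−1.62). GATA3, a zinc finger factor, stood on 2 rows that were both lower, at 6.93, 1.22 and 0.245 and at 4.67, 1.83 and 0.129. TFPI2, a protease inhibitor, stood at 5.70, 1.00 and 2.20, and GFRA3, a receptor of the GDNF family, at 7.80, 1.74 and 0.771 on one of 3 rows. VWDE-2, TNXB and VWDE-1 are neighbouring rows on scaffold604, at 22.7 and 4.67, 20.1 and 5.77, and 26.2 and 9.70.

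**Figure D4:**
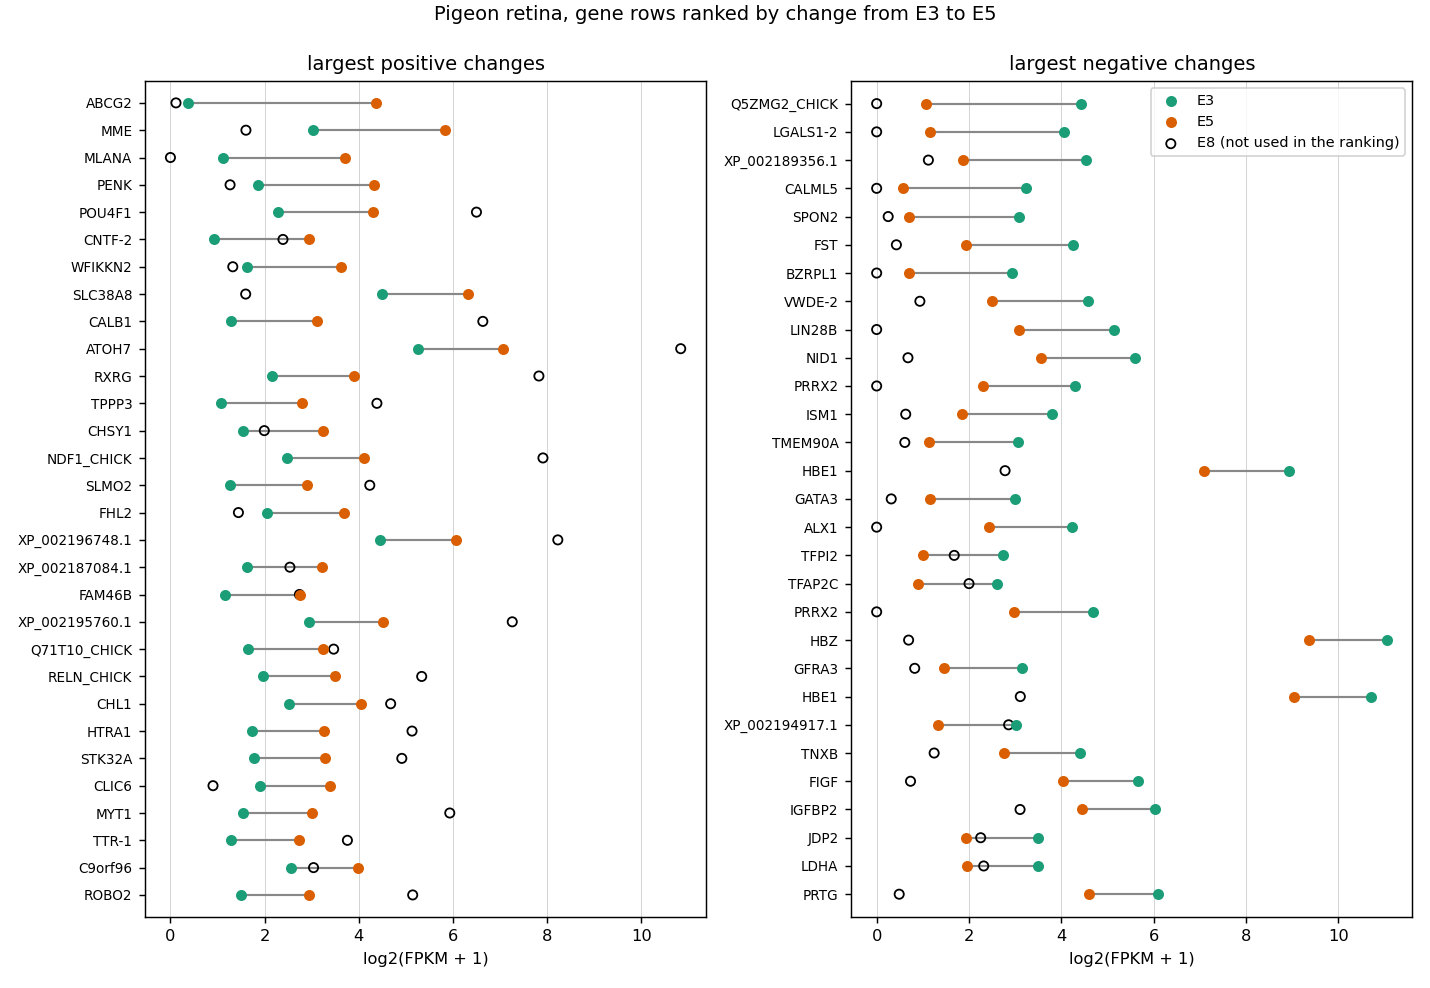
Log2(FPKM + 1) (horizontal axis) of the 30 named rows with the largest positive and the 30 with the largest negative change from E3 to E5, 1 line per row, with E8 as an open circle and 1 row not shown. From ABCG2 (change 4.0) to ROBO2 (1.43) and from Q5ZMG2_CHICK (−3.36) to PRTG (−1.51), the E3 and E5 points are joined by a bar, and E8 lies on either side of them.

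Several counted rows were neighbours on a scaffold. Among 7910 pairs of neighbouring compared rows, 454 had at least 1 counted row, 28 had both counted and 23 of these 28 went the same way. Of all rows 3.15% were counted. Some rows stand in several pairs, and some were counted by construction from a listed 0. Whether neighbours changed together was not tested. FOS, JDP2 and BATF stood in a row on scaffold34, with changes of −1.42, −1.56 and −1.26, the last from 1.39 FPKM to a listed 0. Some pairs are pieces or copies of one gene, as with NEFL and the globins, and the pair SOX7 and an unnamed row overlaps on the scaffold. POU4F1 (2.02) lay 72208 bases from a lower SPRY2 row (−1.27), and ALX1 (−1.80) 261807 bases from RASSF9 (1.40), a row listed at 0 at E3. Names on many rows were common, since 2384 compared rows carried a name found on several rows. Q08515_CHICK, a name on 199 rows, had 26 compared rows, of which 12 were counted, against 3.15% of all rows. Most of these 12 were listed at 0 at one stage and so were counted by construction. The count is therefore no result about that name.

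The chicken table offers independent samples of the same days of incubation. The labels do not say whether both species had reached the same stage of development on those days. Symbols listed once in both tables and compared in chicken numbered 4920, of which 67 (1.36%) were higher in chicken at E5 by at least 1 and 29 (0.589%) lower, with a median change of −0.04. Both tables were normalised separately, so changes and not levels are set side by side. Of 101 symbols on 1 pigeon row that were higher there, 35 could be compared in chicken. The others were not on 1 chicken row or were under 1 FPKM at both chicken stages, as were CALB1 (0.0819 and 0.111) and CHL1 (0.859 and 0.766). Among the 35, 14 were higher in chicken too and none was lower, and the median chicken change was 0.62. Of 97 that were lower in pigeon, 47 could be compared. Among these 11 were lower in chicken, 2 were higher, and the median was −0.11.

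ATOH7 had a change of 2.33 in chicken and RXRG 1.73, against 1.8 and 1.74 in pigeon. ISL1 had 1.495, MYT1 1.29, HES6 1.95 and SLC38A8 1.22. Changes for LRRN1 (0.15), SLC38A11 (0.22) and DCLK3 (−0.34) in chicken stood beside 1.42, 1.42 and 1.36 in pigeon. MME stood at 0.211 and 0.325 FPKM in chicken, under the filter. On the lower side PRTG had −2.44 in chicken, IGFBP2 −2.95, FST −1.74, COL14A1 −2.36 and PAX2 −1.44. HBZ went the other way at 1.01, and CA2 stood at 1792 and 2428 FPKM in chicken (0.44).

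**Figure D5:**
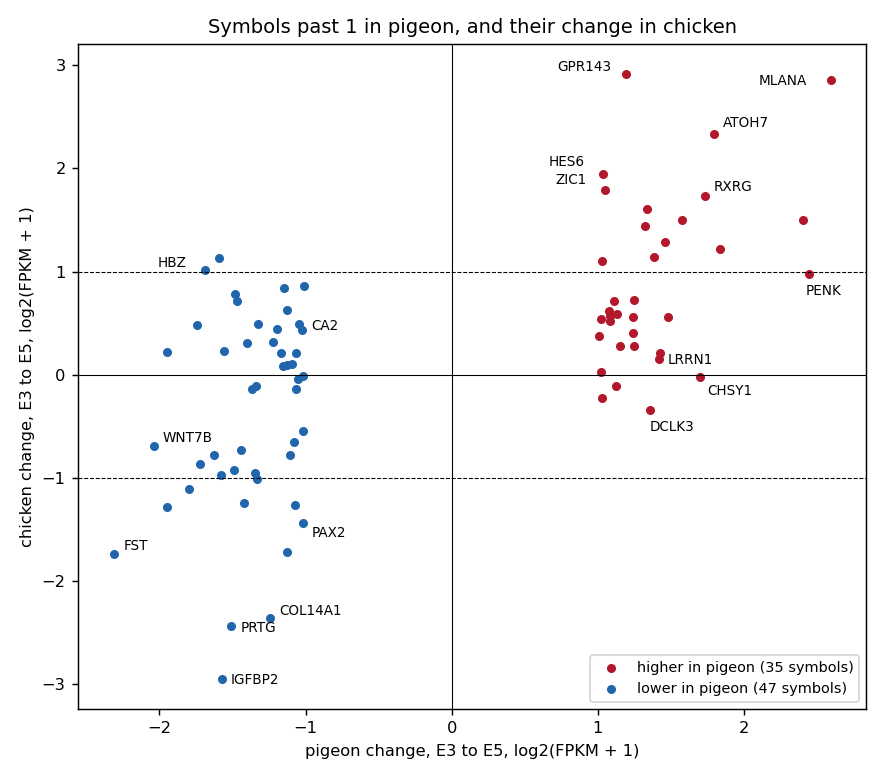
Change from E3 to E5 in log2(FPKM + 1) in pigeon (horizontal axis) and in chicken (vertical axis), 1 point per symbol. Shown are symbols listed once in both tables, past 1 in pigeon and at 1 FPKM or more in chicken at one stage. All but 4 of the 35 symbols that were higher in pigeon lie above 0 in chicken, while 21 of the 47 lower ones lie above 0 and 26 below.

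List medians were compared over the same symbols, those on 1 row in pigeon with a value in chicken. For 7 proneural symbols the median change was 1.04 in pigeon and 1.45 in chicken. Over 9 ganglion cell factors it was 0.07 in pigeon and 0.47 in chicken. For the other-tissue lists it was 0.03 in pigeon and 1.2 in chicken over 10 pigment epithelium symbols, −0.54 and 0.64 over 7 endothelial symbols, −0.30 and 0.34 over 13 mesenchymal symbols, and −0.39 and 0.63 over 5 lens symbols. Over 3 leukocyte symbols it was −0.52 and 0.17, and over 2 erythroid symbols −0.90 and 0.40. Chicken TYR had a change of 2.86 and pigeon TYR −0.09. No test of the difference between species could be made from 1 pooled value per stage.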

How the data were processed

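Per the file headers, the deposited pigeon and chicken tables give FPKM computed by the authors, as 1 pooled column per stage for 3 libraries. Pigeon model lengths and scaffold positions are also the authors', and starts were converted to count from 1. Per the labels' protocols, 1 µg of Trizol-extracted RNA went into stranded mRNA libraries. Cuffdiff, Cufflinks, Bowtie2 and TopHat2 are named in the submitters' processing notes. No build, annotation or read total was given in the sources used here.

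A limma test was planned in case values per library were deposited, and with pooled columns differences of log2(FPKM + 1) were counted past 1, with no p-value. Computation used Python 3.11.15, pandas 2.3.3, NumPy 2.4.6 and matplotlib 3.10.9. The counting was also run on simulated data, with large changes placed only in rows of higher level and little noise. That run checked the code and says nothing about counts at low levels. The 35 lists hold 1354 symbols, of which 777 were found (801 compared rows, 79 counted), and 54 symbols stand in several lists. Older symbols came from a chicken RefSeq table (GRCg7b). Named are the 30 ranked rows at each end, list members, and the 10 highest levels. Rows outside this rule were chosen after their values were seen. They were LRRN1, SAT1_CHICK, CO9A1_CHICK, GPM6A, CRB1, SERPINE3, CERKL, RASSF9, BATF, VWDE-1, Q08515_CHICK, SLC38A11, DCLK3, CADH1_CHICK, KCNJ6, CACNA2D4, TRPM2, HRH1, APOVLDLII and CD300LG. Results for some genes are not reported here. The compared rows and lists were chosen with earlier results of these data known.

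Alternatives were other pseudocounts, filters, lengths and scalings, and rows of single symbols.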

Additional observations from a re-analysis of the deposited data

How the results depend on the processing

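The counts of 179 higher and 174 lower rows depend on the threshold and on how low values are treated. They were 314 and 328 with a pseudocount of 0.1, 29 and 41 with a pseudocount of 5, and 86 and 94 with an FPKM of at least 5 at one stage. A minimum length of 600 bases gave 80 and 85, and no minimum gave 302 and 256. Symbols listed once gave 101 and 97, and rows with at least 10 smallest steps 126 and 114. A change of at least 2 left 14 and 16, and one of at least 0.5, chosen after seeing the data, gave 674 and 667. Median-ratio scaling (179 and 174) and quantile normalization (175 and 188) stayed within 1.5 times. So did rows at 0 left out (135 and 136) and the rows without the other-tissue lists (174 and 158). Without the FPKM filter the counts had to be 179 and 174 again. With the added 1, a row under 1 FPKM at both stages cannot change by 1. Of the 60 ranked rows, 23 fell under 1 with a pseudocount of 5. Pseudocounts and filters cannot change the sign of a row. Under median-ratio scaling and quantile normalization, which could, all 60 stayed past 1 in the same direction. Of the list counts, 111 moved by more than 1.5 times, or to or from 0, and 787 did not. The 787 include counts of 0 under both settings, which say little about stability. The median changed sign for lists of eye field, patterning, retinoic acid, FGF, channels, synapse, early response, lens and leukocytes. Medians that kept their sign ran from 0.31 to 0.89 for proneural genes, 0.27 to 0.62 for ganglion cell factors, 0.014 to 0.55 for photoreceptors, 0.15 to 0.68 for amacrine and horizontal cells, and −1.03 to −0.27 for erythroid genes. No paired analysis was possible because the columns carry no replicate, and leaving out a library was not possible for the same reason. Depth limits rows of few smallest steps.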
